A study of Mus musculus with 4 samples.

Results

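The alpha and beta globin loci were examined for binding of RAD21, a subunit of the ring-shaped cohesin complex. The 7 globin genes Hba-x, Hba-a1 and Hba-a2 on chromosome 11 and Hbb-b1, Hbb-b2, Hbb-bh1 and Hbb-y on chromosome 7 were taken by name from the GENCODE vM1 annotation of mm9, which holds 37310 genes. RAD21 binding sites were taken from 100 kb before to 100 kb after each cluster. This gave 6 of the 15311 sites listed for embryonic stem cells (ESCs) and 3 of the 11022 listed for embryoid bodies (EBs).

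The study mapped RAD21 by chromatin immunoprecipitation and sequencing in R1/E mouse ESCs at day 0 and in EBs grown from them for 12 days by the hanging drop method. Both carried a RAD21 transgene with a GFP tag on a bacterial artificial chromosome besides the cells' own Rad21, and the goat antibody used was directed against GFP. A goat IgG isotype antibody served as the control in each cell type, although the descriptions of these samples also speak of input DNA. There was 1 library in each of the 4 groups, so no difference between ESCs and EBs has a replicate check and no p-value is given. Intervals are exact 95% intervals that cover counting error only.

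Globin genes encode the chains of haemoglobin and are expressed in erythroid cells, with embryonic forms (Hba-x, Hbb-y, Hbb-bh1) first and adult forms (Hba-a1, Hba-a2, Hbb-b1, Hbb-b2) later. The alpha genes are controlled by enhancers far upstream, several of them in introns of the neighbouring gene Nprl3, and the beta genes by a locus control region upstream of Hbb-y. Cohesin holds stretches of chromatin together as loops. It often stops at sites bound by CTCF, a zinc finger protein whose motif has a direction. EBs are mixtures of differentiating cells in which erythroid cells can arise. The libraries hold no RNA, so whether the globin genes were active in the EBs was not measured here.

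The sequence at each site is shown because it holds the site's best match to the CTCF motif. This match passed a strict threshold at 4 of the 6 sites and a looser one at all 6. The looser one was passed at 84.7% of ESC sites on odd-numbered autosomes. A weight matrix of the motif, 20 bases wide, was learned from RAD21 sites on even-numbered chromosomes and applied to the odd-numbered ones, so that neither globin locus took part in learning. Each line below gives mm9 sequence from 5′ to 3′ along the strand of the match, with the 20 matched bases in capitals, and names the site by its distance from the start of Hba-x or Hbb-y.
Hba, 93.7 kb upstream, chr11:32082664-32082743, plus strand: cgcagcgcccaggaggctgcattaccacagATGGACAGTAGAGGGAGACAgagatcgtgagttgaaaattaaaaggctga
Hba, 59.3 kb upstream, chr11:32116998-32117077, plus strand: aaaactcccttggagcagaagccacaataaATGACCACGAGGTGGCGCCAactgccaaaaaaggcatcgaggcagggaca
Hba, 37.8 kb upstream, chr11:32138623-32138702, minus strand: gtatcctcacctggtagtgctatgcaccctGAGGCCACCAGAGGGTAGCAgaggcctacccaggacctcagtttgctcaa
Hba, 44.9 kb downstream, chr11:32221361-32221440, minus strand: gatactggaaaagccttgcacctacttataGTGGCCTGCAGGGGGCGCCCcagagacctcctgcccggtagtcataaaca
Hba, 48.4 kb downstream, chr11:32224808-32224887, minus strand: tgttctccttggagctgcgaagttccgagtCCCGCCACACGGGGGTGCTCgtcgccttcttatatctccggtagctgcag
Hbb, 89.8 kb upstream, chr7:111091423-111091502, minus strand: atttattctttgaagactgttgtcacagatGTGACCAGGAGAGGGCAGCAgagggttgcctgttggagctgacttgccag

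All listed sites of the alpha window lay outside the gene cluster itself. From 100 kb before Hba-x to 100 kb after Hba-a2 (chr11:32076400-32297301), 5 sites were listed in ESCs and 3 in EBs, and all 3 EB sites overlapped an ESC site by at least 1 bp. None lay between the start of Hba-x and the end of Hba-a2. That cluster is 20902 bp long, and the share of stretches of its length without a site was not computed. In the cluster 75.3% of 35-base stretches were unique in the genome, against 93.1% in the window. Among 48234 autosomal stretches of the window's length, 4.88% held as many ESC sites and 11.7% as many EB sites, with a median of 1 in each list. In the beta window (chr7:110861038-111101754), which also holds 13 olfactory receptor genes, 1 site was listed in ESCs and 0 in EBs, and 43.9% of stretches of its length held no EB site. In the whole series 48.6% of ESC sites overlapped an EB site and 68.3% of EB sites overlapped an ESC site, against 3 of 6 and 3 of 3 at the globin loci.

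**Figure D1:**
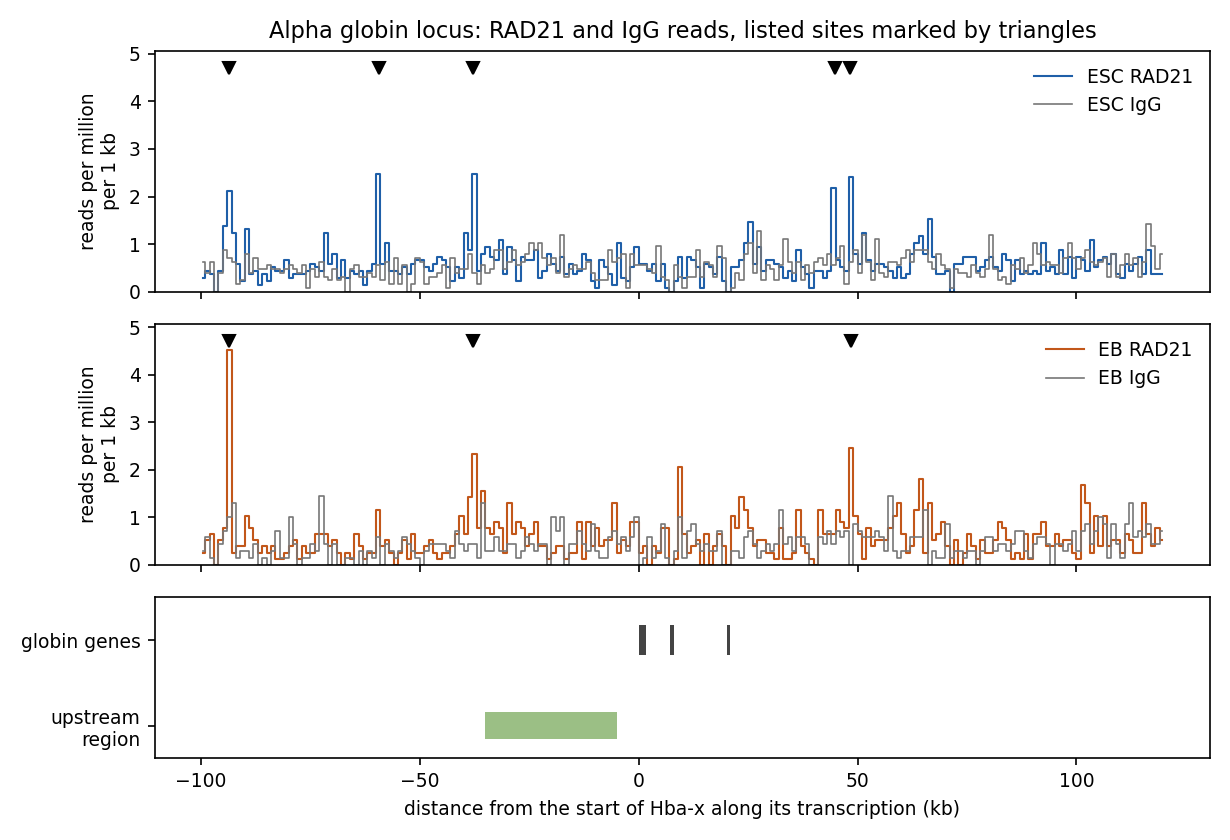
RAD21 and IgG reads in RPM per 1 kb bin (y axis, reads per 1000000 autosomal reads) along the alpha globin window against the distance from the start of Hba-x in kb (x axis), for ESCs (top) and EBs (middle). Triangles mark listed sites, dark bars the 3 globin genes and the green bar the upstream region from 35 to 5 kb before Hba-x. The 5 ESC sites and 3 EB sites stand above IgG on both sides of the genes, and the tallest EB bin is the site 93.7 kb upstream.

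The site 93.7 kb upstream of Hba-x was the one whose counting interval lay above 1 for EBs over ESCs. It was intergenic, 17529 bp from the start of Il9r, an interleukin receptor gene, and was listed in ESCs at chr11:32082545-32083240 with a score of 61.37 (minus 10 times the log10 of the peak caller's p) and in EBs at chr11:32082623-32083282 with a score of 200.76. At least this score was held by 82.1% of ESC sites and by 12.9% of EB sites, so it ranked low in ESCs and high in EBs. Within 250 bp of the ESC summit there were 22 RAD21 reads in ESCs and 31 in EBs, with 4 and 3 IgG reads. In RPM (reads per 1000000 autosomal reads) this was 1.60 in ESCs and 4.005 in EBs, a ratio of EBs over ESCs of 2.50 (interval 1.4 to 4.53). At the EB summit the counts were 23 and 32 and the ratio 2.46 (1.398 to 4.41). An interval above 1 at the EB summit was thus found at 1 of the 3 EB sites, against 35.1% of all EB sites. At the ESC summits it was 1 of 6, against 10.1% of all ESC sites.

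The site 59.3 kb upstream went the other way. It lay in an exon of Rhbdf1, which encodes a rhomboid-like membrane protein without protease activity, 5182 bp from the start of that gene, and was listed in ESCs alone (chr11:32116524-32117515, score 132.32). ESCs had 27 RAD21 reads and 2 IgG reads there, and EBs 4 RAD21 reads and 2 IgG reads. In RPM, RAD21 was 1.97 in ESCs and 0.517 in EBs, and the ratio of EBs over ESCs was 0.263 (0.0667 to 0.753). In EBs the RAD21 level over IgG, with 1 read added to each count, was 1.49 (0.257 to 19.8), so that RAD21 and IgG could not be told apart at this depth. An interval below 1 was found at this 1 of the 6 sites, against 22.5% of all ESC sites. Being listed in ESCs alone in part decides such a ratio, and its median over all sites listed in ESCs alone was 0.403. The share of those sites with an interval below 1 was not computed.

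The site 37.8 kb upstream, in an intron of Nprl3, a regulator of the nutrient-sensing kinase mTORC1, was listed in both cell types (ESCs chr11:32138027-32139156, score 97.21, and EBs chr11:32138188-32138888, score 92.5). It stood just outside the stretch taken for the upstream enhancers. RAD21 reads were 27 in ESCs and 12 in EBs, and IgG reads 3 and 1. The ratio of EBs over ESCs was 0.788 (0.363 to 1.61) at the ESC summit and 0.917 at the EB summit, so no difference was detectable at this depth.

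Both sites downstream of the alpha genes lay between Hba-a2 and Sh3pxd2b, an adaptor of invadopodia. The nearer one, 24.8 kb from the start of Hba-a2, was listed in ESCs alone (chr11:32220785-32221657, score 103.88) and had 28 RAD21 reads in ESCs and 7 in EBs beside 3 IgG reads in each. Its ratio of EBs over ESCs was 0.443 (0.163 to 1.04), an interval that just reached 1. The farther one was listed in both cell types (ESCs chr11:32224322-32225330, score 75.65, and EBs chr11:32224531-32225273, score 55.24), with 23 RAD21 reads in ESCs and 12 in EBs beside 6 and 0 IgG reads. There the ratio was 0.924 (0.419 to 1.94), and it ranged from 0.443 within 100 bp of the summit to 1.29 with IgG reads subtracted.

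Summed over the 5 alpha sites, RAD21 did not move in one direction. There were 127 RAD21 reads in ESCs and 66 in EBs, a ratio of 0.921 (0.673 to 1.25), and 18 and 9 IgG reads. The median ratio over all ESC sites was 0.788, with 1.28 for sites listed in both cell types and 0.403 for sites listed in ESCs alone, a split that being listed in part decides. Over the whole of chromosome 11 ESCs had 1.14 times the share of IgG reads of EBs and 1.14 times the share of RAD21 reads. Scaled to chromosome 11 alone, the ratio at 93.7 kb became 2.83 and that at 59.3 kb 0.298.

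**Figure D2:**
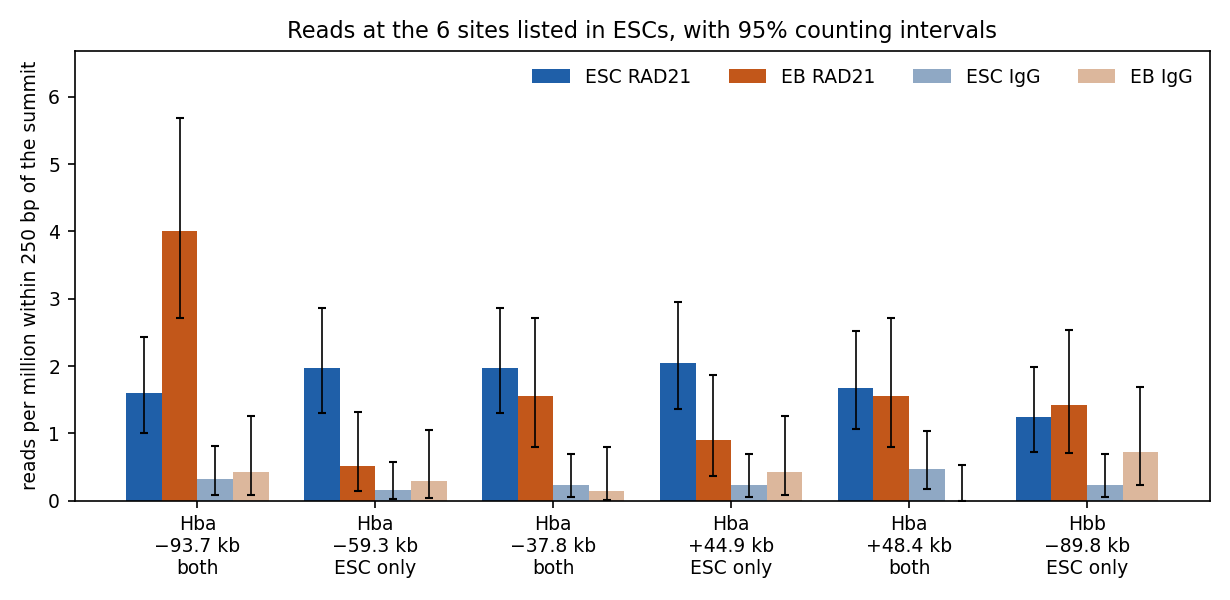
Reads within 250 bp of the ESC summit in RPM (y axis) at the 6 sites listed in ESCs (x axis, with the distance from Hba-x or Hbb-y and whether EBs list the site too), in 1 library of each group. Error bars are 95% Poisson intervals for counting error; EB RAD21 reaches 4.005 at the site 93.7 kb upstream of Hba-x and 0.517 at the site 59.3 kb upstream.

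The single beta site gave another picture. It was intergenic, 89.8 kb upstream of Hbb-y and 3566 bp from the start of the olfactory receptor gene Olfr633, and was listed in ESCs alone (chr7:111091209-111091766, score 62.8, a score that 80.5% of ESC sites reached). RAD21 reads were 17 in ESCs and 11 in EBs, and IgG reads 3 and 5. In RPM, RAD21 there was 1.42 in EBs and 1.24 in ESCs, a ratio of 1.15 (0.485 to 2.60), while RAD21 over IgG was 4.13 (1.51 to 27.7) in ESCs and 1.79 (0.631 to 7.23) in EBs. The direction of the ratio turned with the scaling, to 0.699 with IgG reads subtracted and to 0.892 with all shared sites scaled to a median of 1. Whether RAD21 differed between ESCs and EBs at this site was not detectable at this depth.

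**Figure D3:**
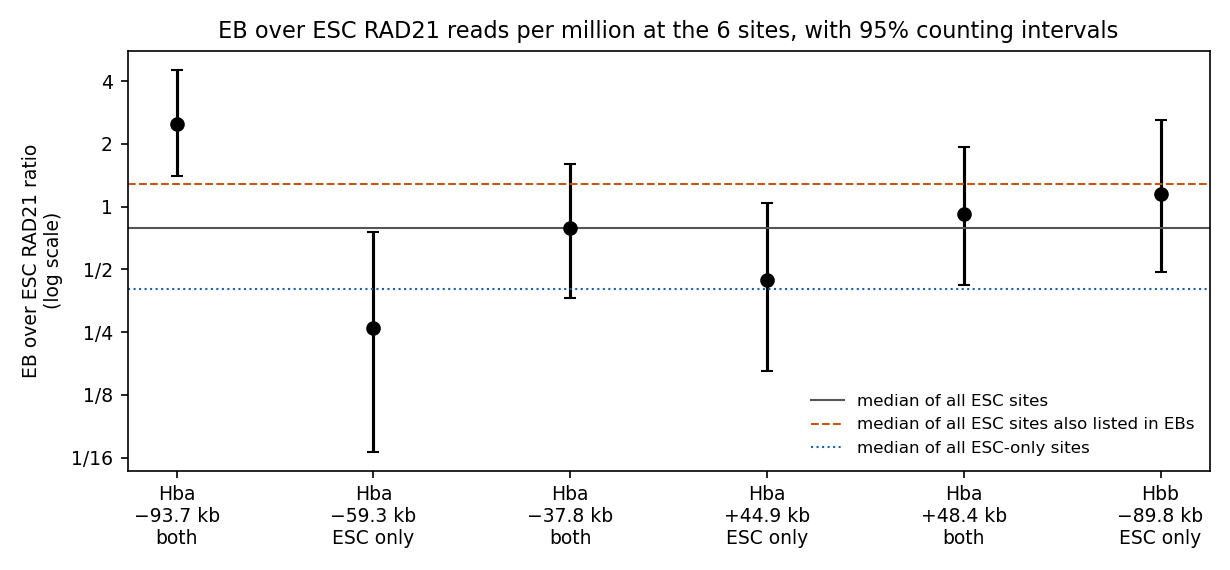
Ratio of EB over ESC RAD21 reads in RPM (y axis, log scale) at the 6 sites (x axis), with 95% counting intervals as bars and the medians of all ESC sites, of those also listed in EBs and of those listed in ESCs alone as lines. The interval lies above 1 at 93.7 kb upstream of Hba-x, below 1 at 59.3 kb upstream and across 1 at the other 4 sites.

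The difference in depth was checked with a calling procedure of one kind for both cell types, in which RAD21 reads in 400 bp were set against the higher of the genome average and the scaled IgG reads in 1000 or 10000 bp around them (Poisson p of at most 1e-05). At full depth it found 6 alpha sites in ESCs and 3 in EBs, including all those listed, and 1 and 0 beta sites. With the ESC libraries thinned to the EB depth in 3 draws, all 5 listed alpha sites were found in every draw, the sites 59.3 kb upstream and 44.9 kb downstream of Hba-x included. The beta site was found in 1 of the 3 draws. All draws came from the ESC libraries in which these sites were listed, which favours finding the sites again. Why some of the sites are missing from the EB list was not tested.

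The sixth alpha region was listed in neither cell type. It lay at chr11:32242650-32243249, 66.5 kb downstream of Hba-x and 4.87 kb before Sh3pxd2b, and held a run of 3 CTCF matches, all on the plus strand. ESCs had 18 RAD21 reads within 250 bp of its middle and 5 IgG reads, a ratio of 2.91 (1.18 to 11.4), and EBs had 6 and 0.

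**Figure D4:**
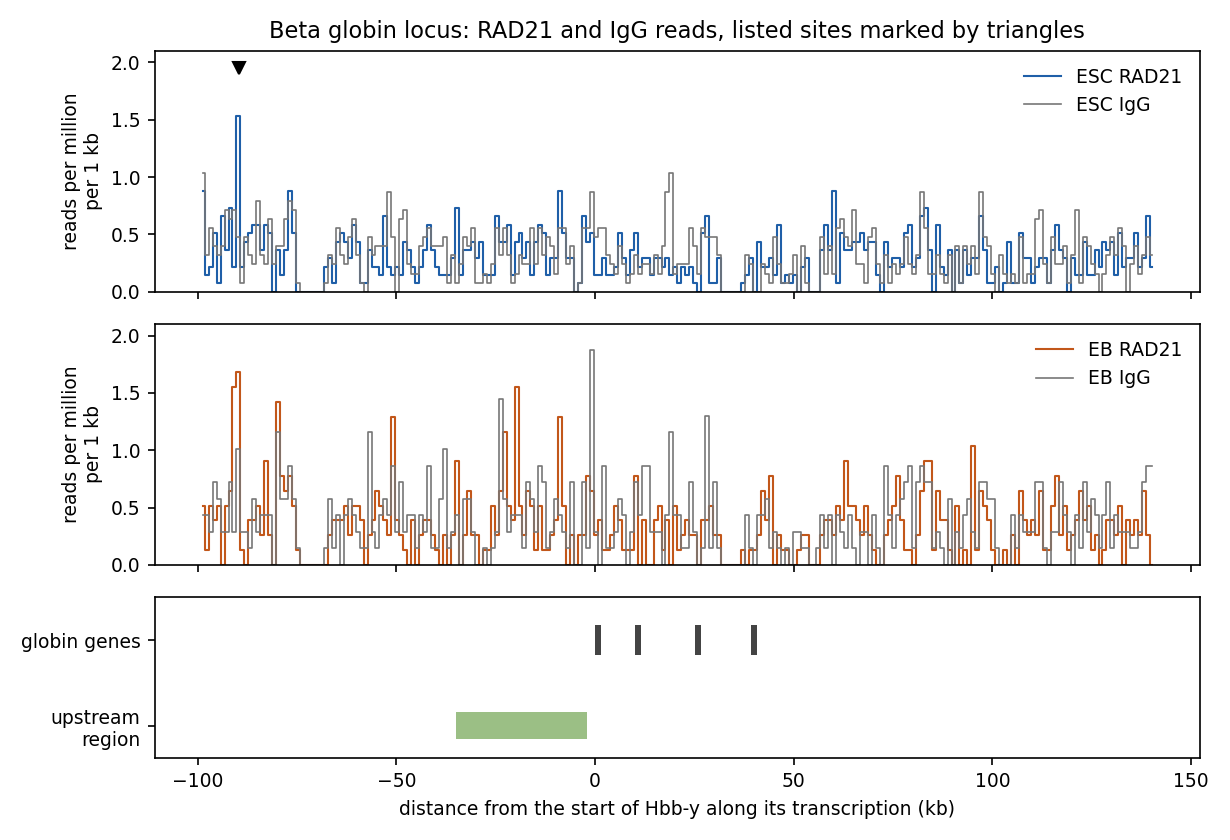
RAD21 and IgG reads in RPM per 1 kb bin (y axis) along the beta globin window against the distance from the start of Hbb-y along its transcription in kb (x axis), for ESCs (top) and EBs (middle). Triangles mark listed sites, dark bars the 4 globin genes and the green bar the locus control region. The ESC site 89.8 kb upstream is the only one listed, the EB trace is also raised there, and bins without reads include stretches where 35-base reads are not unique.

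Matches to the CTCF motif were frequent at the sites of both loci, as in the rest of the list. At a threshold passed by 1e-05 of all positions (20.88 bits), 4 of the 6 ESC sites matched within 150 bp of the summit. Among ESC sites on odd-numbered autosomes the share was 33.6%. Of the 3 EB sites 1 matched, against 23.2% of EB sites on those autosomes. At a rate of 1e-04 (12.57 bits) 6 of 6 ESC sites matched against 84.7%, and 3 of 3 EB sites against 78.0%. The scores were 23.67 bits at 44.9 kb downstream of Hba-x, 22.96 at the beta site, 22.79 in Nprl3, 21.91 in Rhbdf1, 16.13 at 93.7 kb upstream and 13.17 at 48.4 kb downstream. The site with the highest EB level thus had one of the weaker matches. Read along the chromosome, the first 2 upstream alpha sites had their match on the plus strand and the other 3 on the minus strand. In 5 of the 6 sites, the Nprl3 site being the exception, the motif pointed toward the globin genes. Of these, the matches at 93.7 kb upstream and 48.4 kb downstream of Hba-x passed only the looser threshold. No share over other loci was computed, so this count is a description only.

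The summits stood beside the motif and not on it. Sides are given for the motif as it is printed above, from 5′ to 3′ along the strand of the match. At the 4 ESC sites with a match at the stricter threshold the summit lay 80.5, 66.5 and 98.5 bp to the 3′ side of the middle of the match in Rhbdf1, in Nprl3 and at 44.9 kb downstream, and 53.5 bp to its 5′ side at the beta site. That is 3 of 4, against 81.6% of ESC sites with such a match on odd-numbered autosomes. In EBs it was 1 of 1 (Nprl3, 105.5 bp) against 73.2%. The median over all such ESC sites was 48.5 bp to the 3′ side.

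Most strong CTCF matches of the alpha window carried no listed site. Of 12 matches at the rate 1e-05, 3 had an ESC summit within 250 bp (25%) and 1 an EB summit (8.33%). Over all such matches on odd-numbered autosomes the shares were 21.5% and 10.6%. Of 48 matches at the rate 1e-04, 6 had an ESC summit (12.5%, against 5.94%) and 3 an EB summit (6.25%, against 3.86%), where neighbouring matches can share a summit. Summed over the 9 stronger matches without a site, there were 51 RAD21 and 23 IgG reads in ESCs, a ratio of 1.99 (1.22 to 3.49), and 28 and 4 in EBs, a ratio of 5.19 (2.19 to 24.6). RAD21 over IgG was thus above 1 in the sum over these unlisted motifs. The run before Sh3pxd2b, which the uniform calling procedure found in ESCs, gave 18 of the 51 ESC reads. A sum without it was not made, and the EB ratio rests on 4 IgG reads. No such sum over the unlisted matches of the whole genome is given here. In the beta window the only match at the rate 1e-05 was that of the listed site, and 1 of 19 at the rate 1e-04 had a site. The other 18 held 39 RAD21 and 21 IgG reads in ESCs, a ratio of 1.67 (0.979 to 3.05), and 21 and 6 in EBs, a ratio of 2.81 (1.22 to 9.49).

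A pair of these unlisted matches lay in and just after the alpha cluster. The theta globin genes Hbq1b and Hbq1a, which follow Hba-a1 and Hba-a2 and have no settled function, each had the same match of 22.71 bits on the minus strand, 16 and 15 bp before their starts, at chr11:32186930-32186949 and chr11:32200035-32200054. It is shown because both copies stand right before a gene start.
Match at Hbq1b: GAGGCCGCCAGGGGGCGCTG
Match at Hbq1a: GAGGCCGCCAGGGGGCGCTG
RAD21 reads within 250 bp of the match were 2 in ESCs and 5 in EBs at Hbq1b, and 6 and 5 at Hbq1a, with at most 1 IgG read in any library. Together the matches had 8 RAD21 reads against 1 IgG read in ESCs, a ratio of 4.13 (0.986 to 326), and 10 against 1 in EBs, a ratio of 4.92 (1.27 to 388). These ratios have 1 read added to each count, while their intervals do not. EBs over ESCs came to 2.21 (0.787 to 6.46). In each window 73.8% of 35-base stretches were unique in the genome, so some reads could not be placed.

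Within the alpha cluster the 1 kb bin with the most RAD21 reads was the same in both cell types, chr11:32185400-32186399, between Hba-a1 and Hbq1b. It had 10 RAD21 reads in ESCs and 16 in EBs, with 4 and 7 IgG reads. Of its 35-base stretches 64.6% were unique. Among all 1 kb bins, 12.8% held as many RAD21 reads in ESCs and 0.456% in EBs. EBs over ESCs was 2.83 (1.21 to 6.99) for RAD21 and 3.18 (0.809 to 14.8) for IgG, where the IgG interval included 1. RAD21 over IgG was 2.02 in ESCs and 1.90 in EBs. The bin was picked out of 21 for its RAD21 reads, and its intervals do not allow for that choice. Whether RAD21 differed between ESCs and EBs there was therefore not tested.

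At the gene starts where reads could be placed, no RAD21 above IgG could be detected. Hba-a1 and Hba-a2 are counted among the 7 starts, but 12.0% and 0% of the 35-base stretches around their starts were unique. Their counts of 0 in all 4 libraries therefore say nothing about RAD21 at these genes. No member had a listed site within 1 kb of its start in either list, as 2.31% of protein-coding starts had in ESCs and 2.22% in EBs. Within 25 kb, 1 of the 7 starts had an ESC site (Hba-a2, against 38.7% of starts) and 0 of 7 an EB site (against 28.8%). Over the 7 starts there were 16 RAD21 and 16 IgG reads in ESCs, a ratio of 0.919 (0.430 to 1.96), and 6 and 5 in EBs, a ratio of 1.04 (0.273 to 4.45). The median listed site, by comparison, held 23 RAD21 reads in ESCs and 18 in EBs.

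The embryonic alpha gene Hba-x had the most reads of the 7 starts, with 9 RAD21 and 5 IgG reads in ESCs and 0 of both in EBs. A count of 0 in EBs allows up to 3 reads, and the exact interval of ESCs over EBs began at 1.11 for RAD21 and at 0.504 for IgG. The IgG counts were also lower in EBs, but within counting error, and RAD21 over IgG in ESCs was 1.53 (0.498 to 6.28).

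Hba-a1 and Hba-a2, the adult alpha genes, had 0 reads in all 4 libraries. Their annotated sequences were identical at 793 of 794 aligned bases, and 12.0% and 0% of the 35-base stretches around their starts were unique. For these genes the libraries therefore could not show RAD21, whether bound or not. The adult beta genes Hbb-b1 and Hbb-b2 were 96.24% identical, but 98% and 79.2% of the sequence around their starts was unique. Hbb-b1 had 1 RAD21 read in ESCs and 2 in EBs, with 4 and 0 IgG reads. Hbb-b2 had 4 and 1 RAD21 reads, with 3 and 1 IgG reads. The embryonic beta genes lay in unique sequence and were as low, with 2 and 2 RAD21 reads and 1 and 3 IgG reads at Hbb-bh1, and 0 and 1 RAD21 reads and 3 and 1 IgG reads at Hbb-y. No order among the beta genes can be read from counts this small.

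**Figure D5:**
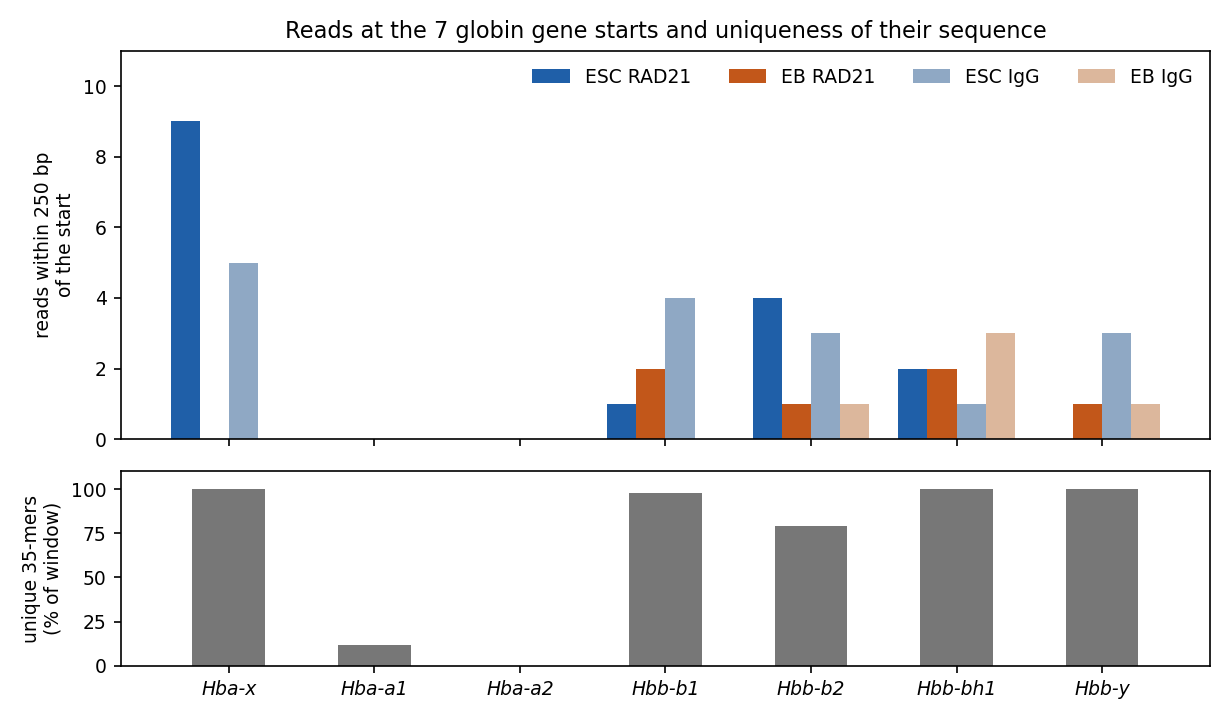
Reads within 250 bp of the start of each of the 7 globin genes in 1 library of each group (upper y axis, counts not scaled for depth), and the percentage of 35-base stretches in that window that occur once in mm9 (lower y axis). Hba-a1 and Hba-a2 have 0 reads where 12.0% and 0% of stretches are unique, and no gene exceeds 9 reads.

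Neither stretch taken for the distal control elements held a listed site. The share of autosomal stretches of these lengths without a listed site was not computed, so this absence is a description only. From 35 to 5 kb upstream of Hba-x (chr11:32141400-32171400) there were 233 RAD21 and 235 IgG reads in ESCs, a ratio of 0.911 (0.757 to 1.10), and 134 and 90 in EBs, a ratio of 1.33 (1.01 to 1.76). Scaled for depth, EBs over ESCs was 1.02 for RAD21 (0.818 to 1.27), while IgG was lower in EBs, at 0.697 (0.540 to 0.892). Of autosomal stretches of this length, 11.2% had as high an EB ratio. Over the whole of chromosome 11 ESCs had 1.14 times the share of both RAD21 and IgG reads of EBs. Scaled to chromosome 11 alone, RAD21 over IgG in EBs was 1.28 in this stretch. What set the EB ratio was not tested. Across the whole alpha window EB IgG was 0.795 of ESC IgG after scaling (0.724 to 0.872). The bin of 500 bp with the most RAD21 reads held 10 in ESCs beside 5 IgG reads. It lay 34.8 kb upstream, at the end of the stretch nearer the Nprl3 site but outside that site. In EBs the fullest bin held 7 beside 2 IgG reads, 5.75 kb upstream. Of all autosomal bins, 1.38% held as many RAD21 reads in ESCs and 1.38% in EBs.

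At the locus control region of the beta genes, from 2 to 35 kb upstream of Hbb-y (chr7:111003754-111036754), there were 167 RAD21 and 128 IgG reads in ESCs, a ratio of 1.20 (0.947 to 1.52), and 107 and 87 in EBs, a ratio of 1.10 (0.822 to 1.48). Neither differed from 1 beyond counting error. Its fullest bins held 8 RAD21 reads in ESCs, 24.8 kb upstream, beside 7 IgG reads, and 7 in EBs, 8.25 kb upstream, beside 2.

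Short motifs of erythroid factors were looked for within 250 bp of starts and within 150 bp of summits, on both strands. The letters searched were AGATAAG for GATA factors, TGAGTCA for NF-E2 and AP-1, and CCACACCC for KLF factors. Of the 7 starts, Hbb-b1 alone held any of them, and held all 3, which 3.78%, 6.15% and 5.47% of protein-coding starts hold one by one. Among the RAD21 sites the GATA letters were found at the site 93.7 kb upstream of Hba-x, as at 3.33% of all ESC sites and 4.03% of all EB sites. The other letters were in none of the 9 listed sites.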

How the data were processed

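The authors sequenced immunoprecipitated DNA on an Illumina Genome Analyzer II and deposited aligned reads on mm9, used here as counts of reads per window. The aligner is not given in the sources used here. They called peaks with MACS 1.4 (beta) against IgG and deposited for each site a score (minus 10 times log10 of p) and a summit height, the signal of piled-up reads. These files hold 1 line per read, with no repeated position and strand, and 7 and 1 broken lines in the ESC and EB IgG files were skipped. The EB IgG file ends on chromosome X, so autosomal reads set the scale: 13714772 for ESC RAD21, 7740389 for EB RAD21, 12602155 for ESC IgG and 6929293 for EB IgG.

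Reads were moved to the middle of their fragments (204 bp in ESCs and 195 bp in EBs, estimated from the strands) and counted within 250 bp of summits and starts. Ratios have exact conditional binomial intervals, computed on the counts as they are. For RAD21 over IgG the printed ratio has 1 read added to each count and its interval does not, which matters most at low counts. The CTCF matrix and the uniqueness of 35-base stretches were computed from the mm9 genome. The members, windows, lists and named items were chosen with earlier results of these data known, and the unlisted CTCF matches, the theta genes and the fullest bins after their values were seen. The GFP tag, sorted clones and the mixture of cells in EBs limit both groups. Counting, calling and motif steps were tested on simulated data with Python 3.11.15, numpy 2.4.6 and scipy 1.17.1.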

Additional observations from a re-analysis of the deposited data

How the results depend on the processing

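There were 108 values from alternatives for 31 results. No ratio that lay to one side of 1 beyond its interval changed sides, and 93 values stayed within the main interval or within 1.5 times the main count. With flanks of 50 kb the ESC sites fell to 3 at the alpha locus and 0 at the beta locus, and the EB sites at the alpha locus to 2. With a score of at least 100, 2 ESC and 1 EB sites remained at the alpha locus and 0 at the beta locus. Counting within 500 bp lowered RAD21 over IgG at the alpha sites in ESCs from 6.19 to 3.65, where the wider window adds background reads.

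The number of sites with a CTCF match depended on the threshold. Alpha ESC sites with a match were 3 at the rate 1e-05 and 5 both at 1e-04 and at a p of 1e-05 in model sequence (12.13 bits), and alpha EB sites 1, 3 and 3. Within 50 bp of the summit 0 alpha ESC, 0 alpha EB and 0 beta ESC sites had a match at the rate 1e-05. Counting at EB summits and the model threshold were added after the data were seen. The beta site was found by the uniform calling procedure in 1 thinned draw, and the count was 0 in the other 2 draws.

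At the site 93.7 kb upstream of Hba-x the ratio of EBs over ESCs ranged from 1.94 to 2.83 over the alternatives, and at the site in Rhbdf1 from 0.126 to 0.394. It ranged from 0.613 to 1.05 in Nprl3, from 0.261 to 0.503 at 44.9 kb downstream, from 0.443 to 1.29 at 48.4 kb downstream and from 0.699 to 1.202 at the beta site. Depth limits the gene starts, apart from Hba-a1 and Hba-a2, where few reads can be placed. No paired analysis was possible because each group has 1 library.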

Other observations

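Of 10 erythroid regulators (Gata1, Klf1, Nfe2, Tal1, Lmo2, Ldb1, Zfpm1, Gfi1b, Myb and Sox6), 4 had an ESC site within 25 kb of their start (Ldb1, Zfpm1, Gfi1b and Sox6), against 38.7% of protein-coding starts, and 2 an EB site (Lmo2 and Sox6), against 28.8%, so the list was close to the background in both. Sox6, a repressor of embryonic globin genes, had 2 ESC sites and 3 EB sites, of which 1 in each list was shared. Lmo2, which bridges GATA and bHLH factors, had 1 EB site and 0 ESC sites.

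The ESC site nearest to the alpha window lay 14.6 kb before it (chr11:32061484-32062662, score 83.56). It was listed in ESCs alone, with 16 RAD21 reads in ESCs and 2 in EBs beside 6 and 0 IgG reads. The next EB sites were 227 kb before and 191 kb after the window. Around the beta window the next sites were 793 kb before and 247 kb after it in both lists, and both were shared between ESCs and EBs.

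Among the unlisted CTCF matches of the beta window, the one with the most ESC RAD21 reads lay 60.1 kb downstream of the start of Hbb-y, beyond Hbb-b2 (chr7:110941604-110941623, 19.92 bits), with 8 RAD21 reads against 1 IgG read in ESCs and 2 against 0 in EBs. A match 59.9 kb upstream of Hbb-y had 3 and 4 RAD21 reads and 0 IgG reads in both cell types.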
